A study of Rattus norvegicus with 10 samples.

Results

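The SLC25 genes encode the mitochondrial carrier family. The members followed here were the genes whose symbol on the array platform starts with Slc25a. Probe sets annotated to 1 gene were used, and where a gene had several, the brightest on average stood for it. The rule found 40 of 14217 genes, on 58 probe sets, and 12 of the 40 had more than 1 probe set. Of the 40, 31 had a mean signal of at least 17.84, the minimum for testing, and entered the tests.

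The samples were gastrocnemius, a calf muscle rich in fast fibres, from male Wistar rats on the AIN-93G diet. The rats were bought at 5 weeks of age, were 6 weeks old when the feeding began and were killed after a 16 h fast. They received 5, 10, 20 or 30% calorie restriction (CR), or the full recorded intake as control, for 1 month or for 1 week. Each of the 10 groups was 1 array of RNA pooled from 5 rats, so no group had a replicate and the spread between rats within a group was not seen. The 1-month rats were also older at collection, so age and duration of CR cannot be told apart.

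Mitochondrial carriers sit mainly in the inner membrane, which is otherwise closed to most metabolites. Each moves a small set of solutes, often by exchange: ADP for ATP, phosphate with protons, malate for oxoglutarate, aspartate for glutamate, or acylcarnitine for carnitine. In skeletal muscle they pass fuel into the matrix and ATP out of it, and they carry the nucleotides, coenzymes and iron that mitochondria need for their own DNA and enzymes.

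Some facts of the arrays bear on the values below. A mean signal trimmed at its extremes was 86.4 on every 1-month array and 99.6 on every 1-week array, so signals of the 2 durations were on different scales. The 7 skeletal muscle markers were all tested, with summed signals of 39179 to 61577, and the 3 liver markers summed to at most 33.9. The 10 slow fibre markers, all tested, summed to 7213 to 10634 on the restricted 1-month arrays against 9552 on their control, and to 6875 to 15589 on the restricted 1-week arrays against 3625 on their control. The 1-week control was thus low for slow fibre genes. Markers of other cells moved with CR too. The adipocyte markers (5 measured, 3 tested) summed to 817.2 to 873.0 on the restricted 1-month arrays against 673.2 on their control, and to 901.2 to 1156 on the restricted 1-week arrays against 799.0 on theirs. The macrophage markers (6 measured, 5 tested) summed to 268.6 to 411.3 against 242.0 after 1 month and to 357.2 to 430.4 against 310.6 after 1 week. The 4 fibroblast markers summed to 4570 to 6169 against 4518 after 1 month and to 7195 to 8003 against 6881 after 1 week. The 3 endothelial markers summed to 288.0 to 376.2 against 388.9 after 1 month, and to 341.3 to 559.5 against 455.7 after 1 week. Adipocyte Cfd and fibroblast Dcn rose and endothelial Kdr fell in the dose trend, and macrophage Cd163 rose in restricted against control (limma). The part of these cells in the carrier values was not tested. Fewer cells of a type and less RNA per cell cannot be told apart in such samples. The titles and diet labels placed each array in 1 group, but at 1 week the free-text notes of the control and of the 5% CR array each stated the feeding of the other kind. Carrier calls that rest on either, and the Slc25a10, Slc25a20 and Slc25a32 differences, are therefore also given with the 2 exchanged or with 1 left out. Genes outside the family were not refitted in this way.

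**Figure D1:**
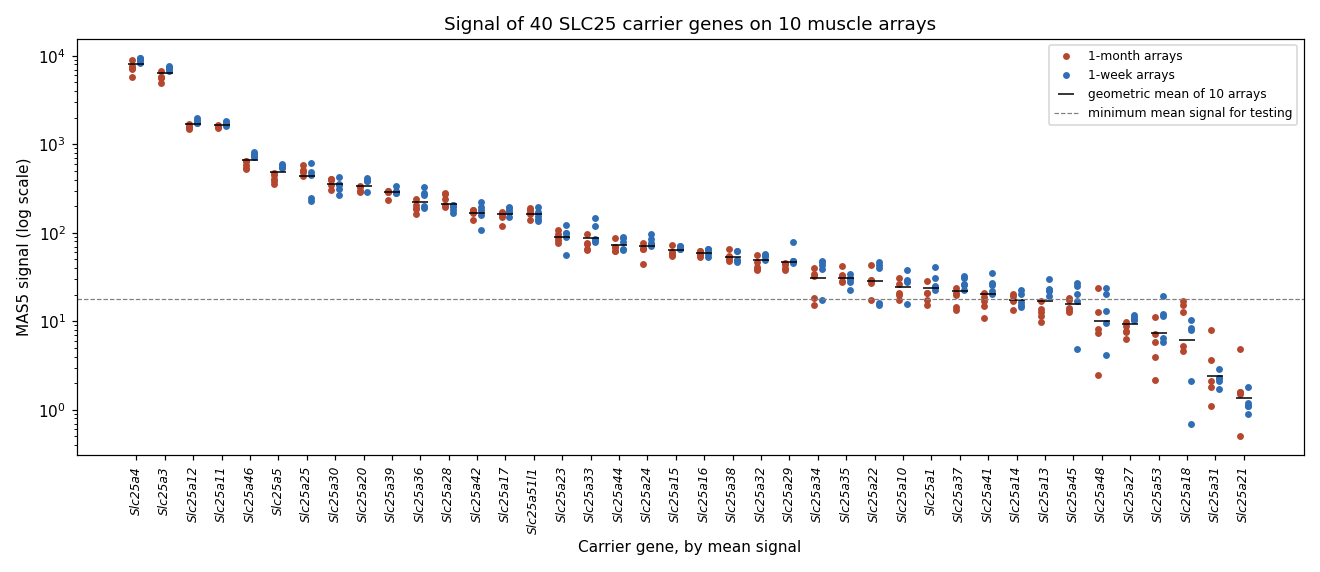
Signal of the 40 SLC25 genes (log axis, MAS5 units), 1 point per array, with 1-month arrays in red on the left and 1-week arrays in blue on the right of each gene. Short bars are geometric means over the 10 arrays, and the dashed line is the minimum of 17.84, under which 9 genes lie.

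The plot of signals by gene shows a wide range, with mean signals of 1.36 to 8099 over the 40 probe sets. Probe sets differ in how strongly they bind, so this order does not rank the transcripts by abundance. The 9 members below the minimum were Slc25a14 (mean signal 17.5), a relative of the uncoupling proteins, Slc25a13 (17.2), the second aspartate and glutamate carrier, Slc25a45 (15.6), Slc25a48 (10.2), Slc25a27 (9.30), also an uncoupling protein relative, Slc25a53 (7.29), Slc25a18 (6.19), a glutamate carrier, Slc25a31 (2.42), an ADP/ATP carrier of testis, and Slc25a21 (1.36), the oxoadipate carrier. No tests were run on these. Just inside the minimum were Slc25a41 (20.2), Slc25a37 (22.2) and Slc25a1 (23.7).

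Promoter sequences are shown for Slc25a33 and Slc25a42, the genes with the smallest p among the carriers that rose with CR and had an entry in the RefSeq promoter table for build GRCr8. Of the 40 members, 34 matched that table. Each stretch runs 5′ to 3′ on the strand of the gene and ends 50 bases past 1 start listed for it. Capitals mark matches to the motifs searched on both strands. The RefSeq gene spans are chr5:165478070-165518186 for Slc25a33 and chr16:19247874-19286598 for Slc25a42. The Slc25a33 stretch lies inside its span and the Slc25a42 stretch reaches into it, so these starts are not the outermost ends of the genes.
Slc25a33 (chr5:165502924-165503223, minus strand): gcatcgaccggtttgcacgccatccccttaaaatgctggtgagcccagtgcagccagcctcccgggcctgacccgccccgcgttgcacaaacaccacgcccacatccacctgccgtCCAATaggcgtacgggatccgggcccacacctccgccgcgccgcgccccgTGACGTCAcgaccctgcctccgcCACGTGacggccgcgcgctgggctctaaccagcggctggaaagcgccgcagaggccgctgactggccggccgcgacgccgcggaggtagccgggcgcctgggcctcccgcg
Slc25a42 (chr16:19247724-19248023, plus strand): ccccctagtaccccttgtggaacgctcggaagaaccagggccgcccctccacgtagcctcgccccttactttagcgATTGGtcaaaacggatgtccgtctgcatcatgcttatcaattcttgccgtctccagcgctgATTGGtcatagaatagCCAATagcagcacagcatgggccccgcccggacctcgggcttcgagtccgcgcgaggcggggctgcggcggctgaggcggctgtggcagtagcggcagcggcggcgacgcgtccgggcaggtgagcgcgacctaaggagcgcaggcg
The Slc25a33 stretch held a CCAAT box 134 bases upstream of its listed start, TGACGTCA, the cyclic AMP response element, 84 bases upstream, and CACGTG, an E-box, 61 bases upstream. The Slc25a42 stretch held 3 CCAAT boxes, at 174, 113 and 97 bases upstream, the first 2 of them on the other strand as ATTGG. TGACGTCA was found in 2 of the 34 member promoters, those of Slc25a25 and Slc25a33, and in 1.83% of 33469 rat promoters. CACGTG was found in 2 of 34, Slc25a31 and Slc25a33, against 6.42% of all promoters. CCAAT was found in 19 of 34, against 37.49% of all. Of the other motifs searched, the palindromic NRF1 site (nuclear respiratory factor) was in 0 of 34 (0.85% of all), the estrogen-related receptor motif AAGGTCA in 1, Slc25a34 (4.61%), and the ETS motif CCGGAAGT in 2, Slc25a17 and Slc25a20 (3.81%). Member counts took 1 stretch per gene, while the shares over all took every entry of the promoter table. No motif shared letters with another in these windows, and binding was not measured.

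The first question of the design was which carriers followed the level of CR. The dose trend, the slope of log2 signal per 10 percentage points of CR over the 10 arrays with duration as a factor, rose for Slc25a33 and Slc25a30 and fell for Slc25a36. These were 2 of 31 tested members upward, where 0.941% of the 15521 tested probe sets passed upward, and 1 of 31 downward, where 1.06% did (limma, Benjamini-Hochberg adjusted p below 0.05). At an unadjusted p below 0.05 there were 9 of 31 in either direction, against 14.3% of all probe sets. Slopes were positive for 22 of 31 members, against 48.3% of all, with a median of 0.033 over members and -0.0033 over all probe sets.

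The second comparison set all 8 restricted arrays, whatever their level, against the 2 controls, again allowing for duration. Slc25a42 rose, 1 of 31 against 1.13% of all probe sets upward. None of the 31 fell, against 0.876% of all (limma), and at an unadjusted p below 0.05 there were 5 upward (7.81% of all) and 2 downward (6.42%). The median difference was 0.061 log2 over members and -0.0082 over all probe sets. By the ratio of each restricted array to the control of its own duration, 6 members were higher in all 8 comparisons (Slc25a20, Slc25a22, Slc25a30, Slc25a33, Slc25a38 and Slc25a42), against 8.2% of all probe sets. Lower in all 8 were 2 members, Slc25a36 and Slc25a51l1, against 8.36%. With each ratio at least 0.25 log2 in size, 1 member was left upward, Slc25a42 (1.4% of all), and 0 downward (1.14%). These counts follow the titles and diet labels. Exchanging the 1-week control and 5% CR arrays turns the sign of the ratio between them. None of these members, nor any other probe set counted here, would then keep all 8 ratios on the same side.

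**Figure D2:**
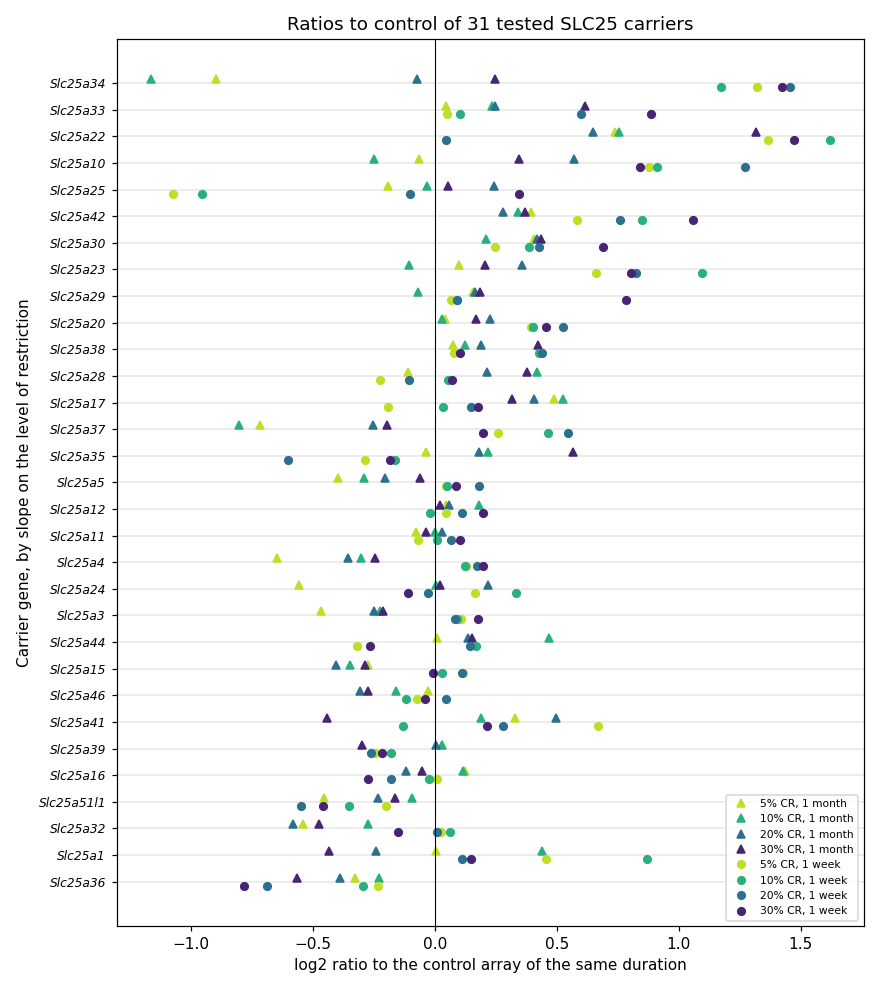
Log2 ratio to the control of the same duration on each restricted array, for the 31 tested carriers, ordered by the slope on the level of restriction, with triangles for 1 month and circles for 1 week and colour for the level. Slc25a33 and Slc25a36 lie near the ends with all 8 ratios on 1 side, while dim genes such as Slc25a34 and Slc25a10 spread widely between durations.

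The ratio plot shows members on both sides of 0. In size regardless of sign, the median slope was 0.081 over the members and 0.050 over all probe sets, and the median difference between restricted and control arrays was 0.18 and 0.13 log2. Median signed ratios over the 31 members at 5, 10, 20 and 30% CR were -0.028, 0.0065, 0.14 and 0.022 log2 after 1 month. After 1 week they were 0.068, 0.089, 0.11 and 0.18 log2. Over all tested probe sets the 8 medians lay between -0.016 and 0.017. The 4 ratios of a duration share 1 control array, so an error in that array moves all 4.

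The pyrimidine nucleotide carriers moved in opposite directions. Slc25a33 and Slc25a36 both import pyrimidine nucleotides, the building blocks of mitochondrial DNA and RNA, and Slc25a33 is known in human cells as a gene induced by insulin. Slc25a33 had signals of 64.0, 66.0, 75.2, 75.9 and 98.2 after 1 month of control feeding and 5, 10, 20 and 30% CR. After 1 week, in the same order of levels, they were 79.2, 82.1, 85.0, 120.0 and 146.6. As labelled, signals climbed at each step of CR at both durations. The ratio to control at 30% CR was 0.62 log2 after 1 month and 0.89 log2 after 1 week. With the 1-week control and 5% CR arrays exchanged, the control would read 82.1, above the 5% CR array (79.2). The Slc25a33 slope was 0.26 ± 0.044 (SE, n = 10) log2 per 10 points (limma, adjusted p = 0.0083). This call was kept in 9 of the 10 fits with 1 array left out, including those without the 1-week control or 5% CR array. Without the 1-week 30% CR array the slope was 0.22 with an adjusted p of 0.084. Within 1 month alone it was 0.19 (adjusted p = 0.41), and within 1 week alone 0.32 (adjusted p = 0.055).

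Slc25a36 had signals of 241.4, 192.4, 206.0, 184.2 and 163.3 after 1 month of control feeding and 5 to 30% CR. After 1 week they were 327.3, 278.6, 266.7, 203.3 and 190.3. As labelled, every restricted array lay below the control of its duration, lowest at 30% CR both times. The mildest 1-week restricted arrays stayed above the 1-month control. With the 1-week control and 5% CR arrays exchanged, the control would read 278.6, below the 5% CR array (327.3). The slope was -0.21 ± 0.036 (SE, n = 10; limma, adjusted p = 0.0075), and it was -0.20 with an adjusted p of 0.061 without the 1-week 30% CR array. The other 9 fits with 1 array left out kept the call. Within 1 month alone the slope was -0.16 (adjusted p = 0.39), and within 1 week alone it was -0.26 (adjusted p = 0.044). A second Slc25a36 probe set, with a mean signal of 106.8, had a slope of -0.14 (adjusted p = 0.27). Restricted against control, the gene differed by -0.44 ± 0.13 log2 (SE; adjusted p = 0.12). Of the 10 slow fibre markers 9 had a positive slope, with a median of 0.31, and none passed. At an unadjusted p below 0.05 there were 8 of these 10, all upward, against 14.3% of all probe sets in either direction (limma). With the mean of the slow fibre markers as a covariate, the slope was 0.24 (adjusted p = 0.075) for Slc25a33 and -0.18 (adjusted p = 0.084) for Slc25a36. Both thus kept size and sign but missed the threshold.

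Slc25a32, which carries folate or FAD, was grouped with these cofactor carriers. It had signals of 56.8, 39.0, 47.0, 38.0 and 40.9 after 1 month and 55.0, 56.0, 57.5, 55.4 and 49.5 after 1 week, from control to 30% CR. All 4 restricted arrays stood below control after 1 month, while after 1 week only the 30% CR array did, and the difference between restricted and control arrays of -0.24 ± 0.16 log2 (SE) did not pass (limma, adjusted p = 0.53). It depended on the controls, at -0.01 log2 without that of 1 month, -0.47 without that of 1 week and -0.26 with the 1-week control and 5% CR arrays exchanged.

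**Figure D3:**
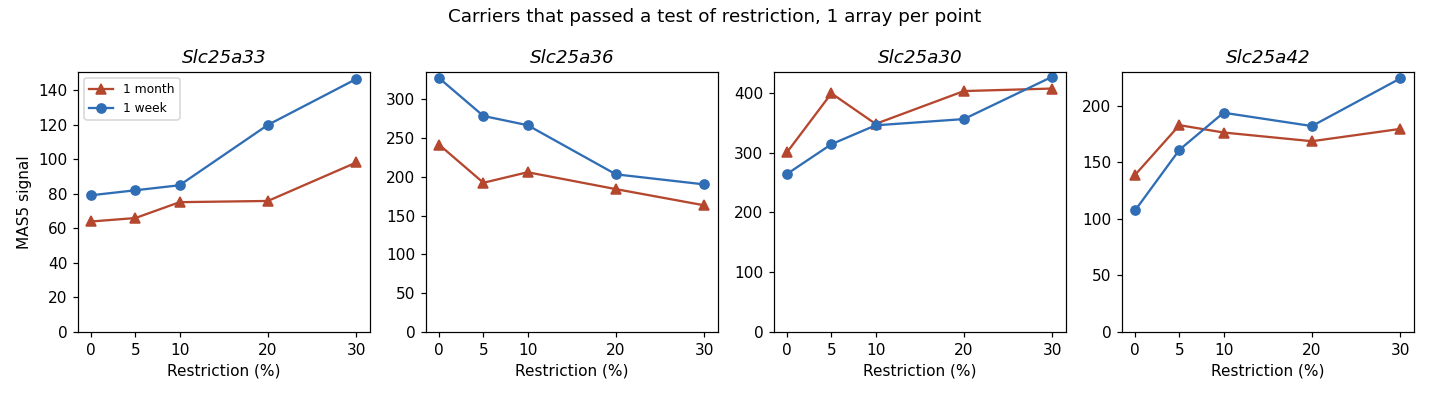
MAS5 signal of the 4 carriers that passed a test of restriction against the level of CR (percent), 1 array per point, with 1-month arrays as red triangles and 1-week arrays as blue circles. Slc25a33 climbs and Slc25a36 drops with the level at both durations, while Slc25a42 is set apart mainly by its low control arrays.

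Slc25a30, a relative of the uncoupling proteins first described in kidney, also rose with the level. Its signals were 301.2, 399.4, 348.2, 403.2 and 407.4 after 1 month and 264.7, 314.2, 345.8, 356.3 and 427.2 after 1 week, from control to 30% CR. The 8 restricted arrays all lay above both controls, and the 5% CR array after 1 month was already about as high as those at 20 and 30%. The slope was 0.16 ± 0.036 (SE, n = 10; limma, adjusted p = 0.039). Restricted against control, the difference was 0.40 ± 0.10 log2 (SE; adjusted p = 0.058). A second probe set, with a mean signal of 165.9, had a slope of 0.22 (adjusted p = 0.064) and a difference between restricted and control arrays of 0.62 log2 (adjusted p = 0.042). The call on the slope was fragile. It was lost in 7 of the 10 fits that left out 1 array, with the exceptions of the 1-week 10%, 1-month 5% and 1-month 30% CR arrays, and adjusted p ranged from 0.0090 to 0.23 over the 10 fits. It was also lost with the 1-week control and 5% CR arrays exchanged (slope 0.15, adjusted p = 0.098), with the slow fibre mean as a covariate (0.13, adjusted p = 0.24), within 1 month alone (0.11, adjusted p = 0.57) and within 1 week alone (0.20, adjusted p = 0.089).

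Slc25a42 carries coenzyme A into the matrix in exchange for adenine nucleotides. It had signals of 139.0, 182.8, 176.3, 168.6 and 179.5 after 1 month of control feeding and 5 to 30% CR. After 1 week they were 107.6, 161.0, 193.8, 182.0 and 224.1. All 8 restricted arrays lay above both controls, as for 4 of the 31 members in all (Slc25a20, Slc25a30 and Slc25a38 being the others), against 4.05% of probe sets. The 1-month restricted arrays were level with each other at 0.28 to 0.40 log2 over control, while those of 1 week stood 0.58 to 1.06 log2 over theirs. Restricted against control, the rise was 0.58 ± 0.12 log2 (SE, n = 8 against 2 arrays), or 1.49-fold (limma, adjusted p = 0.027). The dose trend of 0.17 ± 0.057 did not pass (adjusted p = 0.15) and was 0.10 without the 1-week control. The low 1-week control carried much of this. Without that array the difference was 0.35 log2 (adjusted p = 0.39), and with the 1-week control and 5% CR arrays exchanged it was 0.22 log2 (adjusted p = 0.72). With the slow fibre mean as a covariate it was 0.48 log2 (adjusted p = 0.15). Within 1 month alone the difference was 0.35 log2 (adjusted p = 0.24), and within 1 week alone it was 0.81 log2 (adjusted p = 0.13). The p of 0.027 therefore rests on the 1-week control.

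Slc25a20, the carnitine and acylcarnitine carrier of fatty acid oxidation, had signals of 290.7, 299.1, 296.9, 340.2 and 327.2 after 1 month and 291.5, 383.1, 384.9, 419.8 and 399.5 after 1 week, from control to 30% CR. Restricted arrays exceeded both controls in 8 of 8 cases, narrowly after 1 month (0.03 to 0.23 log2) and more widely after 1 week (0.39 to 0.53 log2). The difference was 0.28 ± 0.09 log2 (SE) and the slope 0.096 ± 0.035, and neither passed (limma, adjusted p = 0.14 and 0.20). The difference was 0.44 log2 without the 1-month control, 0.12 without the 1-week control and 0.03 with the 1-week control and 5% CR arrays exchanged (adjusted p = 0.11, 0.74 and 0.94). The slope was 0.056 without the 1-week control. The enzymes that work beside it were measured too. All 5 of the listed carnitine genes (Cpt1a, Cpt1b, Cpt2, Crat and the plasma membrane carnitine transporter Slc22a5) had a positive slope and a positive difference, where 48.3% of all probe sets had a positive estimate in each fit, and none passed in either. For Cpt2 and Crat these were smaller than their SE, with slopes of 0.0081 and 0.0066 and differences of 0.035 and 0.043 log2. The smallest adjusted p was that of Cpt1a, the liver form of the outer membrane carnitine palmitoyltransferase, at 0.49 log2 in restricted against control (adjusted p = 0.090). At an unadjusted p below 0.05 there were 3 of the 5, all upward, in restricted against control, where 7.81% of all were, and 0 in the dose trend.

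Among the other adenine nucleotide carriers, Slc25a25 is named here after its values were seen. It is a calcium-dependent carrier that exchanges ATP-Mg for phosphate, and its signal was lowest at the mild levels after 1 week. It read 497.1, 434.7, 485.7, 588.8 and 515.4 after 1 month and 485.9, 230.9, 250.6, 452.6 and 617.9 after 1 week, from control to 30% CR. The 1-week 5 and 10% CR arrays were the 2 lowest of the 10, at -1.07 and -0.96 log2 against their control, and the 1-month arrays at the same levels stood at -0.19 and -0.03 log2. These 1-week ratios rest on the labels of the control and 5% CR arrays, whose notes conflict. With the 2 exchanged, the control would read 230.9, below the 5% CR array (485.9) and the 10% CR array (250.6). Neither the slope (0.18 ± 0.091 SE, adjusted p = 0.39) nor restricted against control (-0.21 ± 0.27, adjusted p = 0.78) passed in limma. Slc25a16, Slc25a17, Slc25a23, Slc25a24 and Slc25a41 passed neither test. Of these, Slc25a23, another calcium-dependent ATP-Mg carrier, had a difference of 0.49 log2 on 1 probe set (adjusted p = 0.16) and -0.37 log2 on a second (adjusted p = 0.45), so its direction was not settled.

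The ADP/ATP and phosphate carriers supply the ATP synthase with its substrates and export its product. Slc25a4, the ADP/ATP carrier of heart and muscle, had signals of 8991, 5742, 7282, 7035 and 7592 after 1 month and 8299, 9061, 9039, 9364 and 9509 after 1 week, from control to 30% CR. Slc25a3, the phosphate carrier, read 6749, 4890, 5781, 5676 and 5820 after 1 month and 6793, 7319, 7225, 7200 and 7683 after 1 week. Slc25a5, the ADP/ATP carrier of many other tissues, read 471.5, 358.1, 385.8, 409.5 and 452.4 after 1 month and 534.2, 551.3, 552.8, 605.7 and 566.6 after 1 week. All 3 lay below control on each 1-month restricted array, most at 5% CR, and above control on each 1-week restricted array. None passed for the slope, which was 0.013 to 0.033 log2 per 10 points, or for restricted against control, which was -0.12 to -0.07 log2. The pattern was found in 4 of 31 members, Slc25a37 being the other, against 5.21% of all probe sets. The brightest 1% of probe sets, 310 in all, moved the same way: their median ratios were -0.31 to -0.11 log2 on the 1-month restricted arrays and 0.02 to 0.11 log2 on those of 1 week. Probe sets for control RNA added at hybridization had geometric means of 575.6 to 783.3 on the 1-month restricted arrays against 1067 on their control. After 1 week they were 912.3 to 985.5 against 1027. The part of such array differences in the carrier values was not tested. After quantile normalization the 8 ratios of Slc25a4 lay between -0.05 and 0.07 log2 and those of Slc25a3 between -0.05 and 0.06, while those of Slc25a5 still ran from -0.43 to -0.06 after 1 month and from 0.08 to 0.21 after 1 week. Slc25a4 and Slc25a3 were the brightest members, and this step leaves the brightest probe sets little room to differ between arrays. After median centring their 1-month ratios stayed below 0, at -0.52 to -0.13 for Slc25a4 and -0.33 to -0.05 for Slc25a3. Those of Slc25a5 ran from -0.27 to 0.01.

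The carriers of the malate-aspartate shuttle, which brings reducing equivalents from glycolysis into the matrix, varied little across CR, and neither passed a test of it. Slc25a12, the aspartate and glutamate carrier of muscle, had signals of 1510, 1557, 1710, 1574 and 1533 after 1 month and 1750, 1807, 1728, 1889 and 2005 after 1 week. Slc25a11, the oxoglutarate carrier, read 1612, 1527, 1611, 1645 and 1572 after 1 month and 1693, 1615, 1703, 1771 and 1819 after 1 week. The ratios to control stayed within -0.02 to 0.20 log2 for Slc25a12 and -0.08 to 0.10 log2 for Slc25a11. The enzymes of this and the glycerol phosphate shuttle included 1 that passed. Of 6 tested, Gpd2, the mitochondrial glycerol phosphate dehydrogenase, fell with the level of CR (-0.23 ± 0.040 SE log2 per 10 points, limma adjusted p = 0.0083) and in restricted against control (-0.57 log2, adjusted p = 0.033). Its signals were 230.3, 183.9, 183.2, 164.0 and 146.5 after 1 month and 345.5, 244.4, 247.3, 191.0 and 184.5 after 1 week, from control to 30% CR. The 1-week control was the highest of the 10, and with the 1-week control and 5% CR arrays exchanged it would read 244.4. Gpd2 was not refitted with these arrays exchanged or with 1 array left out. The other 5 (Got1, Got2, Mdh1, Mdh2 and Gpd1) passed neither test, and at an unadjusted p below 0.05 only Got1 joined Gpd2, upward in the dose trend. Of all tested probe sets, 1.06% passed downward in the dose trend and 0.876% in restricted against control. Unadjusted, 14.3% were below 0.05 in either direction in the dose trend, and 6.42% downward in restricted against control.

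The remaining carriers of carboxylates and amino acids that stood out did so at low signal. Slc25a22, a glutamate carrier, read 17.5, 29.2, 29.5, 27.4 and 43.6 after 1 month and 15.4, 39.7, 47.3, 15.9 and 42.8 after 1 week. Both controls were low, but so was the 1-week 20% CR array, and the difference of 1.00 ± 0.33 log2 (SE) did not pass (limma, adjusted p = 0.16). Over the 10 fits with 1 array left out the difference ran from 0.86 to 1.17 log2. Only the fit without that 20% CR array passed (adjusted p = 0.024). With the 1-week control and 5% CR arrays exchanged, the 1-week control would read 39.7 in place of 15.4. Slc25a34, a carrier whose substrate is not settled, read 34.1, 18.3, 15.2, 32.4 and 40.5 after 1 month and 17.4, 43.5, 39.3, 47.7 and 46.7 after 1 week. Its slope of 0.30 ± 0.12 had the highest value of the 31 and did not pass (adjusted p = 0.28; 0.18 without the 1-week control), and the restricted arrays at 5 and 10% were below control after 1 month and above it after 1 week. Slc25a10, the dicarboxylate carrier, read 20.8, 19.9, 17.5, 30.9 and 26.4 after 1 month and 15.7, 28.9, 29.5, 37.9 and 28.1 after 1 week, with a difference of 0.56 ± 0.27 log2 (SE, adjusted p = 0.35). That difference was 0.98 log2 without the 1-month control, 0.15 without the 1-week control and 0.01 with the 1-week control and 5% CR arrays exchanged. Slc25a1, the citrate carrier, read 20.8, 20.9, 28.2, 17.6 and 15.4 after 1 month and 22.4, 30.7, 41.0, 24.2 and 24.8 after 1 week, highest at 10% CR both times. Its slope was -0.12 ± 0.098 (SE, adjusted p = 0.65), -0.20 without the 1-week control and -0.065 without the 1-month 30% CR array. The group of amino acid and glutathione carriers had 7 tested members (Slc25a12, Slc25a15, Slc25a22, Slc25a29, Slc25a38, Slc25a39 and Slc25a44) with a median slope of 0.032, 5 of them positive. The group of di- and tricarboxylate carriers had 5 tested members (Slc25a1, Slc25a10, Slc25a11, Slc25a34 and Slc25a35) with a median slope of 0.052, 4 of them positive. No member of these 2 groups passed in either fit.

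Slc25a51l1 is named by the annotation after the NAD carrier Slc25a51. As labelled, it was the only member with every restricted array below both controls (1 of 31, against 2.51% of probe sets). It had signals of 192.8, 140.6, 180.9, 164.2 and 172.1 after 1 month and 197.9, 172.5, 155.0, 135.3 and 144.2 after 1 week. With the 1-week control and 5% CR arrays exchanged, the 1-week control would read 172.5. The 1-week 5% CR array would read 197.9, above both controls. The ratios ran from -0.55 to -0.09 log2 without an order by level, and the difference of -0.31 ± 0.11 log2 (SE) did not pass (limma, adjusted p = 0.20).

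The third comparison set the 1-month arrays against the 1-week arrays, with the level of CR as a covariate. Of the 31 members 1 was higher, where 1.13% of all probe sets were, and 10 were lower, where 32.8% were (limma). The median over the members was -0.22 log2, and over all probe sets it was -0.21, beside the lower trimmed mean of the 1-month arrays, so single values are read against -0.21. Slc25a5 (-0.44 ± 0.075 SE log2, adjusted p = 0.00072) and Slc25a46, an outer membrane protein of mitochondrial shape (-0.38 ± 0.065, adjusted p = 0.00072), had the smallest p. Slc25a46 read 653.4, 640.9, 584.7, 527.9 and 540.4 after 1 month and 786.2, 746.4, 723.8, 811.5 and 763.9 after 1 week, from control to 30% CR. The 1-month and 1-week arrays did not overlap for 5 members, all lower after 1 month (Slc25a3, Slc25a5, Slc25a12, Slc25a29 and Slc25a46), against 19.3% of probe sets. A second Slc25a46 probe set differed by -0.05 log2 between durations (adjusted p = 0.69).

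**Figure D4:**
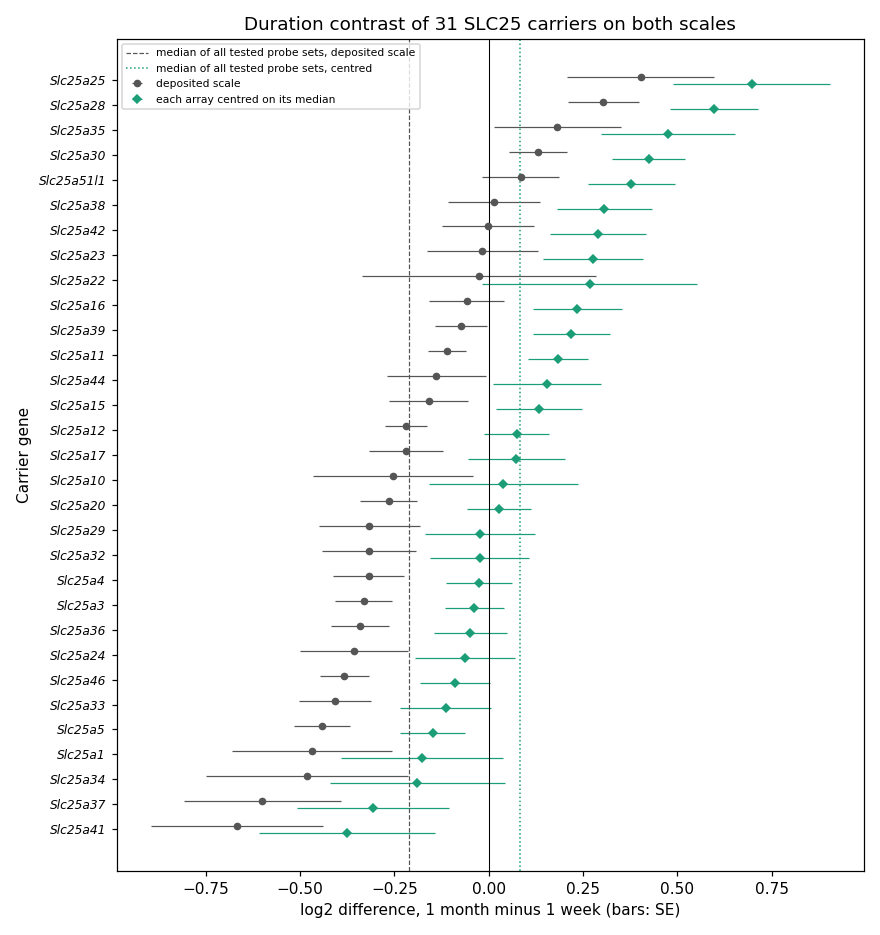
Log2 difference of 1 month minus 1 week for the 31 tested carriers (bars are SE) on the deposited scale in grey and after centring each array on its median in green, with vertical lines at the medians of all tested probe sets. Most carriers lie near the line of their scale, and Slc25a28 lies to the right of it on both.

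The plot of the duration contrast on both scales shows how much of it went with the scale. After centring each array on its median, or after quantile normalization, none of the 10 lower members passed. Slc25a28, mitoferrin 2, which imports iron into mitochondria of most tissues, was the member that passed upward on all 3 scales. It read 208.7, 193.4, 278.7, 242.4 and 271.3 after 1 month and 197.1, 168.7, 204.9, 183.0 and 206.8 after 1 week. The 10, 20 and 30% CR arrays after 1 month were the highest of the 10, the 1-month control lay just above the highest 1-week array, and the 1-month 5% CR array lay within the range of 1 week. The difference was 0.30 ± 0.094 log2 (SE, adjusted p = 0.023) as deposited, 0.60 ± 0.12 (adjusted p = 0.0044) centred and 0.49 ± 0.096 (adjusted p = 0.0052) after quantile normalization, where all probe sets had medians of -0.21, 0.08 and 0.01. Its adjusted p lay between 0.011 and 0.059 when 1 array was left out, and 5 of the 10 such fits lost the call on the deposited scale, those without the 1-week 5, 20 or 30% CR array or the 1-month 10 or 30% CR array. Slc25a30 passed upward on the 2 adjusted scales (centred 0.42 log2, adjusted p = 0.012) and was 0.13 ± 0.077 log2 (adjusted p = 0.20) as deposited.

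Slc25a37, mitoferrin 1, the erythroid form, read 23.7, 14.4, 13.6, 19.9 and 20.7 after 1 month and 22.3, 26.7, 30.8, 32.6 and 25.6 after 1 week. It was lower after 1 month by -0.60 ± 0.21 log2 (SE, adjusted p = 0.038), and -0.31 centred (adjusted p = 0.37). On the deposited scale the call was lost in 7 of 10 fits with 1 array left out and kept without either control or the 1-week 30% CR array (adjusted p = 0.015 to 0.088 over the 10). The 2 red cell markers measured, Hbb and Alas2, both fell with duration, and their summed signal was 816.6 to 982.8 after 1 month and 1598 to 1972 after 1 week. Their part in the Slc25a37 value was not tested. Slc25a41, an ATP-Mg carrier without calcium control, read 14.8, 18.6, 16.9, 20.9 and 10.9 after 1 month and 22.1, 35.1, 20.2, 26.8 and 25.6 after 1 week. Its difference of -0.67 ± 0.23 log2 (SE, adjusted p = 0.036) lay close to the minimum signal and was lost in 6 of 10 fits with 1 array left out (adjusted p = 0.027 to 0.11), those without the 1-week 5, 20 or 30% CR array, the 1-month control, or the 1-month 10 or 30% CR array.

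The last comparison asked whether the slope on CR differed between 1 month and 1 week. No member passed, nor did any of the 15521 probe sets (limma), and at an unadjusted p below 0.05 there was 1 member, Slc25a46, against 6.06% of all. Its slope after 1 month minus that after 1 week was -0.12 log2 per 10 points (adjusted p = 0.81).

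The lists of other mitochondrial genes set beside the carriers held 1 gene that passed under CR, Gpd2. Of the family members with other symbols, Ucp1, the uncoupling protein of brown fat, had a mean signal of 3.10 and was not tested. Ucp2, Ucp3, Mtch1 and Mtch2 were tested and none passed in the dose trend or in restricted against control (unadjusted, 0 and 1). Among 18 tested channels and transporters of other families, none passed in either fit (unadjusted, 1 and 3). The smallest p in the dose trend was that of Sfxn5, a sideroflexin, at -0.24 ± 0.059 log2 per 10 points (adjusted p = 0.055). Among 16 genes of the machinery that imports carriers into the inner membrane, none passed in either fit (unadjusted, 0 and 1). Beside these unadjusted counts, the share over all tested probe sets was 14.3% in the dose trend. In restricted against control it was 7.81% upward and 6.42% downward. The smallest p there was that of Timm10, a chaperone of the intermembrane space, at -0.23 log2 in restricted against control (adjusted p = 0.11). By duration, 2 of the 4 family members, 1 of the 5 carnitine genes, 5 of the 6 shuttle enzymes, 8 of the 18 channels and transporters and 6 of the 16 import genes were lower after 1 month on the deposited scale, where 32.8% of all probe sets were, with medians of -0.25 to -0.13 log2 beside the -0.21 of all probe sets.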

How the data were processed

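The authors pooled muscle RNA of the 5 rats in each group in equal parts and ran each pool on 1 Affymetrix Rat Genome 230 2.0 array. The deposited values are signal intensities on a linear scale, computed and scaled by the authors with MAS5 (per the submitters' processing notes). The table held 31099 probe sets with no detection calls, and 57 control probe sets were left out. Symbols came from the platform annotation: 20826 probe sets had 1 gene, 436 several and 9780 none. All 40 members were matched to the RefSeq gene table.

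A floor of 0.1 was set on the signals before log2 was taken. The 15521 probe sets with a mean at or above the 50th percentile (signal 17.84) were tested with limma 3.58.1 in R 4.3.3 (lmFit, eBayes with trend), with Benjamini-Hochberg adjustment over all of them at 0.05. The 4 fits were dose trend, restricted against control, duration (7 residual degrees of freedom each) and dose by duration (6). Their errors come from the scatter of arrays about the fit, since each group had 1 array, and the number of arrays limits the precision. Simulated data with known slopes were used to check the fits.

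Array by array are given members that passed any fit, the 3 with the largest slope and difference in each direction, the 5 with the highest mean signal and the smallest p of each fit. Members, gene lists and tests were chosen with earlier results of these data known. Alternatives were quantile normalization, median centring, other filters, 32 added to the signal, eBayes without trend, averaging over each gene's probe sets, exchange of the 1-week control and 5% CR arrays, the slow fibre mean as a covariate, level ranks, restricted arrays alone, the level as a block and leaving out each array. Fits within 1 duration were chosen after seeing the data.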

Additional observations from a re-analysis of the deposited data

Results flagged for a closer look

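For 4 carriers each 1-month restricted array was below its control and each 1-week restricted array above its own, against 5.21% of all tested probe sets. The median log2 ratios after 1 month and after 1 week were -0.24 and 0.098 for Slc25a3, -0.33 and 0.15 for Slc25a4, -0.25 and 0.067 for Slc25a5, and -0.49 and 0.36 for Slc25a37. This difference between the durations was not tested as such. The related test of the slopes gave adjusted p of 0.94 for Slc25a3, 0.95 for Slc25a4, 0.99 for Slc25a5 and 0.996 for Slc25a37 (limma). The 4 ratios of a duration share 1 control. The notes of the 1-week control and 5% CR arrays conflict. With these 2 exchanged, the 1-week 5% CR array would lie below control for all 4 carriers. After median centring, 2 of the 4 1-week ratios of Slc25a3, of Slc25a4 and of Slc25a5 were above 0, while Slc25a37 kept all 4 above 0 after 1 week and all 4 below 0 after 1 month. The centred 1-month ratios of Slc25a3 and Slc25a4 all stayed below 0, and 1 of those of Slc25a5 was above it.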

How the results depend on the processing

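Each group had 1 array, so each fit rests on 10 arrays, single values have no replicate error, and members near the minimum signal are the least exact. The labels carry no replicate numbers, so arrays were paired only by level, as a block in the duration contrast. The dose trend, 3 members in all, gave 1 without the eBayes trend and 0 with the slow fibre covariate or with restricted arrays alone. Within 1 month alone it gave 0, and within 1 week alone 1. Leaving out 1 array gave 0 to 3, with 0 without the 1-week 30% CR array. Restricted against control, 1 member in all, gave 0 under median centring, without the eBayes trend, with the exchanged arrays, with the slow fibre covariate and within each duration alone, and 2 with the 70th percentile filter or averaging over each gene's probe sets. Leaving out 1 array gave 0 to 2, with 0 without the 1-week control. The duration contrast, 11 members in all, gave 2 after quantile normalization and 4 after median centring, all of them higher after 1 month (Slc25a28 and Slc25a30 in both, Slc25a25 and Slc25a51l1 centred), 10 with the level as a block, and 8 to 13 with 1 array left out. It changed sign for Slc25a4 (0.017, quantile), Slc25a12 (0.023, quantile, and 0.075, centred) and Slc25a20 (0.028, centred), none of which then passed. Carriers with all 8 ratios on 1 side, 1 at a minimum of 0.25, numbered 8 with no minimum, and 0 at 0.5, with 32 added to the signal, or with the arrays exchanged. Dose by duration gave 0 throughout. Causes beyond the construction of these settings were not tested.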

Other observations

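A pair of probe sets carried the symbol Slc25a51, the NAD carrier, under more than 1 gene identifier and were therefore not among the members. From control to 30% CR the first read 571.2, 500.4, 513.7, 505.0 and 459.3 after 1 month and 541.8, 441.7, 463.4, 477.4 and 516.0 after 1 week, so each restricted array lay below the control of its duration. The second read 271.7, 256.4, 298.1, 253.3 and 220.5 after 1 month and 289.3, 236.4, 257.9, 318.5 and 239.8 after 1 week, with 1 restricted array above control at each duration. These values were not tested.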
